A study of Mus musculus with 6 samples.

Results

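Chromatin accessibility was described at the genes of chromatin remodellers and histone modifiers in mouse fibroblasts. The members were all regions assigned to a protein-coding gene whose symbol is Kdm, Hdac, Sirt, Chd, Brd, Ezh, Kat, Ing or Tet with a number, or starts with Smarc, Dnmt or Arid, at any distance from the transcription start site (TSS). They came to 114 of 63430 regions and to 82 genes on 19 chromosomes. Of these regions, 71 had their centre within 1 kb of the TSS and are called promoter regions here, 1 for each of 71 genes, and 43 lay farther away, up to 5384 bp. A single region was listed for 58 genes, and 24 genes had 2 or more. The symbol rule also takes in Brd3os, a gene named for its place opposite Brd3, which is not known as a chromatin modifier. Its 2 regions were not called.

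The cells were NIH/3T3, an established line of mouse embryonic fibroblasts, and in both groups they carried the knocked-in gene of Cas13d, an RNA-cleaving CRISPR nuclease. The Actg1 guide group (3 libraries) was transfected with a guide RNA specific for Actg1, the gene of cytoplasmic gamma-actin, and the GFP guide group (3 libraries) with one specific for GFP. Each library was an ATAC-seq profile of 25000 cells, in which the Tn5 transposase inserts adapters into open DNA. The series' title places the comparison in a study of transcriptional adaptation, a response to perturbed genes or mRNAs. The labels state 3 biological replicates per group. They do not say whether the knock-in cells were 1 clone or whether the replicates came from separate cultures. The p-values thus measure the spread between these libraries, which may be technical.

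Accessibility is given as the deposited signal, a read count normalized and rounded by the authors. Estimated reads in regions ranged from 5675784 to 9526172 per library, and signal totals from 7673745 to 7831438. Between replicates 1 and 2 of the GFP guide the difference could not be told from sampling noise (chi-square per region 1.0, p = 0.224), while the other replicate pairs of the same group gave chi-squares per region of at least 1.03. Those 2 libraries, labelled as biological replicates, were averaged and counted as 1 sample. This left 2 samples of the GFP guide against 3 of the Actg1 guide. Among marker genes, 6 of 8 fibroblast markers had a promoter region, with summed signals of 2278 to 2432 with the Actg1 guide and 2416 to 2506 with the GFP guide. Of the epithelial markers 1 of 4 had one (Krt8, 95 to 132 with the Actg1 guide and 98 to 117 with the GFP guide), of the immune markers 2 of 4 (Cd68 and Lyz2, 96 to 115 with the Actg1 guide and 49 to 61 with the GFP guide), and of the endothelial and skeletal muscle markers 0 of 3 each. The part of these marker differences in the results below was not tested.

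DNA in the nucleus is wound around histone octamers, and remodellers of the SWI/SNF, ISWI and CHD families spend ATP to slide, evict or space these nucleosomes. Acetyltransferases and deacetylases add and remove acetyl groups on histone tails, demethylases take methyl groups off lysines, and reader proteins with bromodomains or PHD fingers bind the marked tails. DNA methyltransferases place methyl groups on cytosines, and Tet enzymes oxidize them. Beta-actin and the actin-related protein Actl6a are themselves subunits of mammalian SWI/SNF complexes, named BAF and PBAF, which ties this gene family to the protein family that the guide addressed.

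The promoter sequences of 5 members that the results turn on are shown first, since 3 rose and 2 fell at or near their annotated start. They are RefSeq windows of assembly GRCm38.p6, from 250 bases before to 50 bases after the gene start, written 5′ to 3′ on the gene's strand. Smarcb1 lies at chr10:75921565-75921864 on the minus strand, Smarca4 at chr9:21615919-21616218 on the plus strand, Smarca2 at chr19:26604910-26605209 on the plus strand, Brd2 at chr17:34121698-34121997 on the minus strand and Chd6 at chr2:161109037-161109336 on the minus strand. Capitals mark matches, on either strand, to the motifs TGANTCA for AP-1, GGAATG for TEAD, CCGGAAG for ETS factors, CCAAT for NFY and CACGTG for E-box factors. The Brd2 window follows a RefSeq start inside the region, downstream of the TSS from which the region's distance is counted. The Brd2 region also reaches H2-DMa and the Smarca2 region the gene model Gm52395, and signal there cannot be divided between the overlapping genes.
Smarcb1: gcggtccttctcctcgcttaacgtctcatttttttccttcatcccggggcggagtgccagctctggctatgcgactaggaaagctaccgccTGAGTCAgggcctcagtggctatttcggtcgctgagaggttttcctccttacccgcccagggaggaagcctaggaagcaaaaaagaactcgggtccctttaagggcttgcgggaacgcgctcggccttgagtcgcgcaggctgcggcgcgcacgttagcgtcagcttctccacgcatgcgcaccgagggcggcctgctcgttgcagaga
Smarca4: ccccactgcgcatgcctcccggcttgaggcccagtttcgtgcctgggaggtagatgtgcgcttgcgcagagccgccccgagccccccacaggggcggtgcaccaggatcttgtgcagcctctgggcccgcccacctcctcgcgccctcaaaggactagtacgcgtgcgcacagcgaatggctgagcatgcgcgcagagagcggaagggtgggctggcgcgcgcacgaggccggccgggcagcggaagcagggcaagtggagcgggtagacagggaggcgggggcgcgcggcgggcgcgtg
Smarca2: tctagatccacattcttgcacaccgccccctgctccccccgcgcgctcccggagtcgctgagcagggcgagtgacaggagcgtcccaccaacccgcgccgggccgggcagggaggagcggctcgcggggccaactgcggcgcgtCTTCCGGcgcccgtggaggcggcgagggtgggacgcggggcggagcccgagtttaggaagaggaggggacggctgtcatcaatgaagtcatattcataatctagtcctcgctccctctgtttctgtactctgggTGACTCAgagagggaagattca
Brd2: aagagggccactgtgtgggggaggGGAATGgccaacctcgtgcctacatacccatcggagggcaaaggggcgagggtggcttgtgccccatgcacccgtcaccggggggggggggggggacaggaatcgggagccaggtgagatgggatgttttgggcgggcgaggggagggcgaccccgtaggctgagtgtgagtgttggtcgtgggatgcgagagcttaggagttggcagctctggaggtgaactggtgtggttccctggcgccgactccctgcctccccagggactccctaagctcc
Chd6: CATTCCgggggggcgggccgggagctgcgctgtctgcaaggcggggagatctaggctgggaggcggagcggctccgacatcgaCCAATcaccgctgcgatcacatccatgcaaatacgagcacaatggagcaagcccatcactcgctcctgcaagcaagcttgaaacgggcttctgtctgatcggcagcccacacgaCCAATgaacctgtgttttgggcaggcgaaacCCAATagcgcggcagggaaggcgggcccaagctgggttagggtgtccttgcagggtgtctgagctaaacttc
Smarcb1 held 1 AP-1 match, Smarca2 held 1 AP-1 and 1 ETS match, Brd2 held 1 TEAD match, Chd6 held 1 TEAD and 3 NFY matches, and Smarca4 held 0 of the 5 motifs. These matches are letters in a window and show no binding.

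Accessibility of the members changed both ways, and by small amounts. Of 113 member regions tested, 30 rose and 18 fell with the Actg1 guide (limma on log2(signal + 1), adjusted p under 0.05), together 42.5%. Of all 61327 regions tested, 41.3% were called, 20.6% higher and 20.7% lower, so the share called among members lay near that of the table. The largest rise was 1.66-fold, the largest fall 1.71-fold, 9 called members changed by at least 1.5-fold, and 0 changed by at least 2-fold. Calls of at least 2-fold made up 12.2% of all tested regions and 0.995% of promoter regions of protein-coding genes. Changes are given as log2 ratios, the log2 fold change of the Actg1 guide over the GFP guide. The median log2 ratio was 0.03 over the members and -0.01 over all tested regions. By gene, 23 had calls in the higher direction alone, 17 in the lower direction alone, 1 (Arid5b) had both, and 41 had none. In a bulk profile, a change in the share of cells with an open region and a change in its openness per cell cannot be told apart.

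At promoters, 18 member regions were higher and 13 lower of 71 tested, which is 25.4% and 18.3%. Over all 9954 tested promoter regions of protein-coding genes 31.2% were called, 12.9% higher and 18.3% lower. The median log2 ratio was 0.01 over member promoters and -0.02 over those of all protein-coding genes. After cyclic loess scaling the member split was 22 higher and 10 lower, and with column medians set equal it was 14 higher and 13 lower. Of the 113 tested members, 77 lay in the highest 25% of the table by signal, and the median signal was 319 at member promoters and 274 at promoters of all protein-coding genes. The part of this higher signal in the share called was not tested. Beyond 1 kb from the TSS, 12 member regions were higher and 5 lower of 42 tested, together 40.5%, against 38.8% (22.9% higher and 15.9% lower) over 5058 such regions of protein-coding genes. Kdm6b and Chd3, which lie near each other on chromosome 11, supplied 6 of the 30 higher regions, and without both genes 24 were higher and 18 lower of 105.

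**Figure D1:**
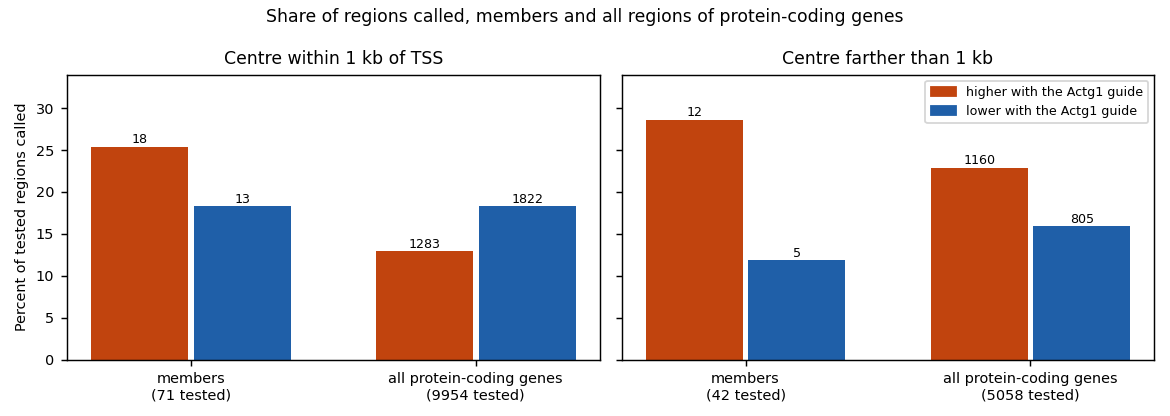
Bars show the percent of tested regions called higher or lower with the Actg1 guide (limma, adjusted p under 0.05) for members and for all protein-coding genes, at promoters (left) and beyond 1 kb (right), with the number of regions above each bar. At promoters 25.4% of members and 12.9% of all protein-coding regions were higher, while 18.3% of either were lower.

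The counts depended on single libraries. Without GFP guide replicate 3, which leaves 1 GFP guide sample that is assumed to vary like the Actg1 guide samples, 12 members were higher and 1 lower, and 5 member promoters were higher and 1 lower. Leaving out Actg1 guide replicate 1 gave 17 higher and 16 lower members, and 9 higher and 12 lower member promoters, so the balance at promoters turned round. The 13 calls that held without any 1 library were 12 rises, among them Smarcb1, Brd2, Chd4, Sirt4, Kdm4d, Kdm5c, 1 region each of Chd3 and Kdm1a and 3 regions of Kdm6b, and 1 fall, at Chd6. Of these 13, Brd2, Chd4, Sirt4 and Chd6 were among those lost without limma's mean-variance trend, at limma adjusted p of 0.0519 to 0.109, a setting under which 16 of the 48 calls were kept and 1 was gained (11 higher and 6 lower). Of the called members, 0 changed sign under any alternative. The libraries of both groups did not overlap at 42 of the 48 called members (87.5%), against 94.6% of all called regions; over all tested regions, 39.1% were called and did not overlap. For the groups that follow, the shares called over all tested regions were 20.6% higher and 20.7% lower. Over promoter regions of protein-coding genes they were 12.9% higher and 18.3% lower, and the groups differ in their share of promoters. The difference of any group from these shares was not tested. In these groups, the called members reported here are named. Those outside the naming rule (by size of change, role and signal) were named after their values were seen.

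**Figure D2:**
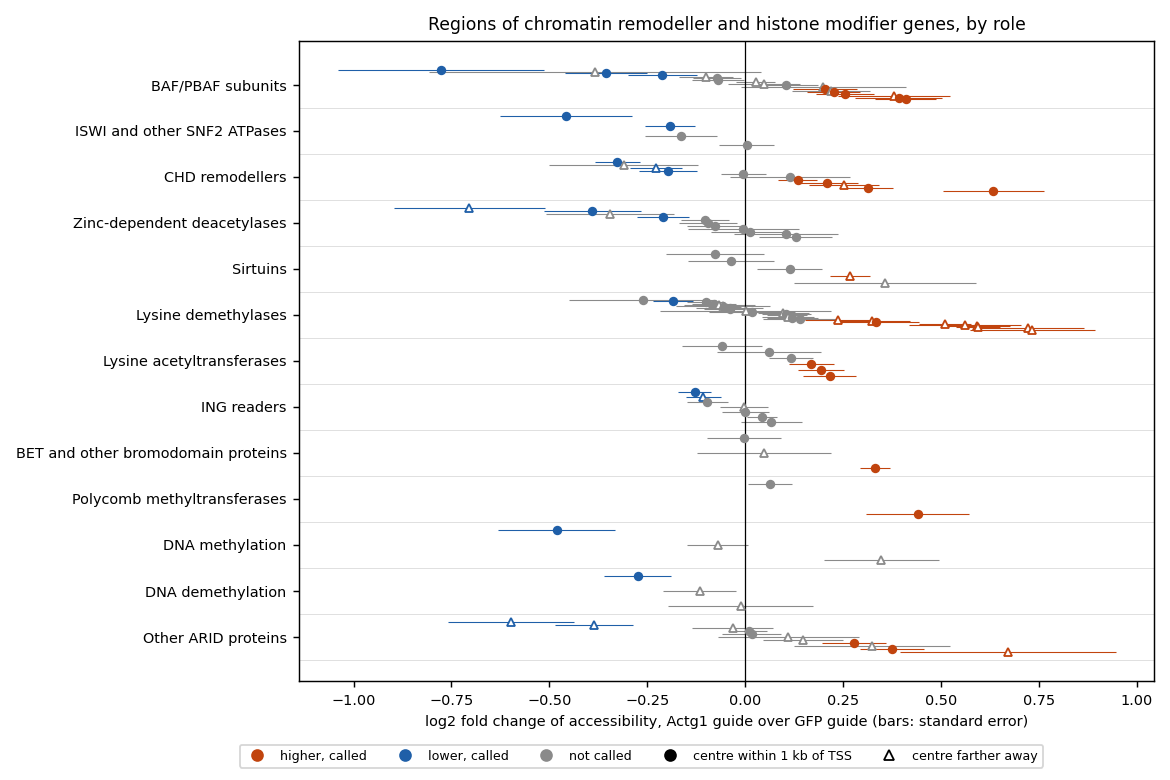
Each point is the log2 fold change of accessibility, Actg1 guide over GFP guide, of 1 tested member region, with its standard error, sorted within rows by role. Demethylases hold most of the large rises beyond 1 kb (open triangles), deacetylases have calls on the lower side alone, and BAF/PBAF subunits and CHD remodellers have calls on both sides.

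Subunits of the BAF and PBAF complexes had 6 regions higher and 3 lower of 18 tested (median log2 ratio 0.08). That is 50.0% called, against 41.3% of all tested regions. The promoter of Smarcb1, a core subunit known as a tumour suppressor, kept an adjusted p under 0.05 in every refit, at 1.33-fold. Its signal was 346, 362 and 373 in the Actg1 guide libraries, against 286, 287 and 256 in the GFP guide libraries. All 3 Actg1 guide libraries lay above all 3 of the GFP guide, a log2 ratio of 0.41 (SE 0.0769, limma adjusted p = 3.14e-05). The ATPases that drive the complex, which replace each other within it, had calls of opposite sign. Smarca4 had 447, 397 and 395 with the Actg1 guide and 372, 369 and 322 with the GFP guide, a log2 ratio of 0.25 (SE 0.0742, limma adjusted p = 0.00500). Smarca2 had 147, 142 and 160 with the Actg1 guide and 178, 180 and 205 with the GFP guide, a log2 ratio of -0.36 (SE 0.104, limma adjusted p = 0.00520). In neither ATPase gene did the libraries of the groups overlap, with Smarca4 higher and Smarca2 lower with the Actg1 guide.

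Further rises were at the promoters of Smarce1, which carries an HMG domain that binds DNA (log2 ratio 0.39, limma adjusted p = 0.00402), and of the scaffold subunit Smarcc2 (0.23, limma adjusted p = 0.00678). Arid1a, the large DNA-binding subunit of BAF, rose at its promoter by 0.20 and at a region 5027 bp downstream by 0.38 on the log2 scale (limma adjusted p = 0.0393 and 0.0296). The falls were at Smarcd3, a subunit variant studied mainly in heart and muscle, and at Brd7, a bromodomain subunit of PBAF (log2 ratio -0.21, limma adjusted p = 0.0481). Smarcd3 had low signal, 19, 20 and 17 with the Actg1 guide against 30, 26 and 38 with the GFP guide, and its log2 ratio of -0.78 was the largest fall among the members (SE 0.262, limma adjusted p = 0.0152). The most accessible region of the group, Arid1b 1049 bp from its TSS, had 883, 815 and 849 with the Actg1 guide and 799, 873 and 829 with the GFP guide, which overlap (log2 ratio 0.03, limma adjusted p = 0.694). Smarcc1, Smarcd1 and Arid2, with log2 ratios between -0.10 and 0.11, were not called either, and the region listed for Smarcc1 overlaps Dhx30 and not Smarcc1 in the RefSeq table. Farther regions of Arid1a, Arid1b, Smarcc2 and Smarcd3 had log2 ratios between -0.38 and 0.22, not called.

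Most calls in this complex ended without GFP guide replicate 3, a refit that leaves 1 GFP guide sample. Among the ended calls, log2 ratios were then 0.15 for Smarca4, -0.26 for Smarca2, 0.16 for Smarcc2 and 0.30 for Smarce1. They were -0.56 for Smarcd3, -0.27 for Brd7, and 0.16 and 0.36 for both Arid1a regions. The part of the smaller number of samples in these losses was not tested. Smarca4 was also lost without Actg1 guide replicate 1 (0.20, limma adjusted p = 0.0746). Brd7 was lost without any of Actg1 guide replicates 1 and 3 and GFP guide replicate 1 (-0.20 to -0.18), the Arid1a promoter without Actg1 guide replicate 1 or 2 or GFP guide replicate 1 (0.14 to 0.23), and the other Arid1a region without Actg1 guide replicate 1 or 2 or GFP guide replicate 2 (0.34 to 0.35). Cyclic loess scaling ended the Brd7 call (-0.18), and equal column medians that of the Arid1a promoter (0.18). Without the mean-variance trend 2 regions of the complex were called, 1 higher (Smarcb1) and 1 lower (Smarcd3).

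**Figure D3:**
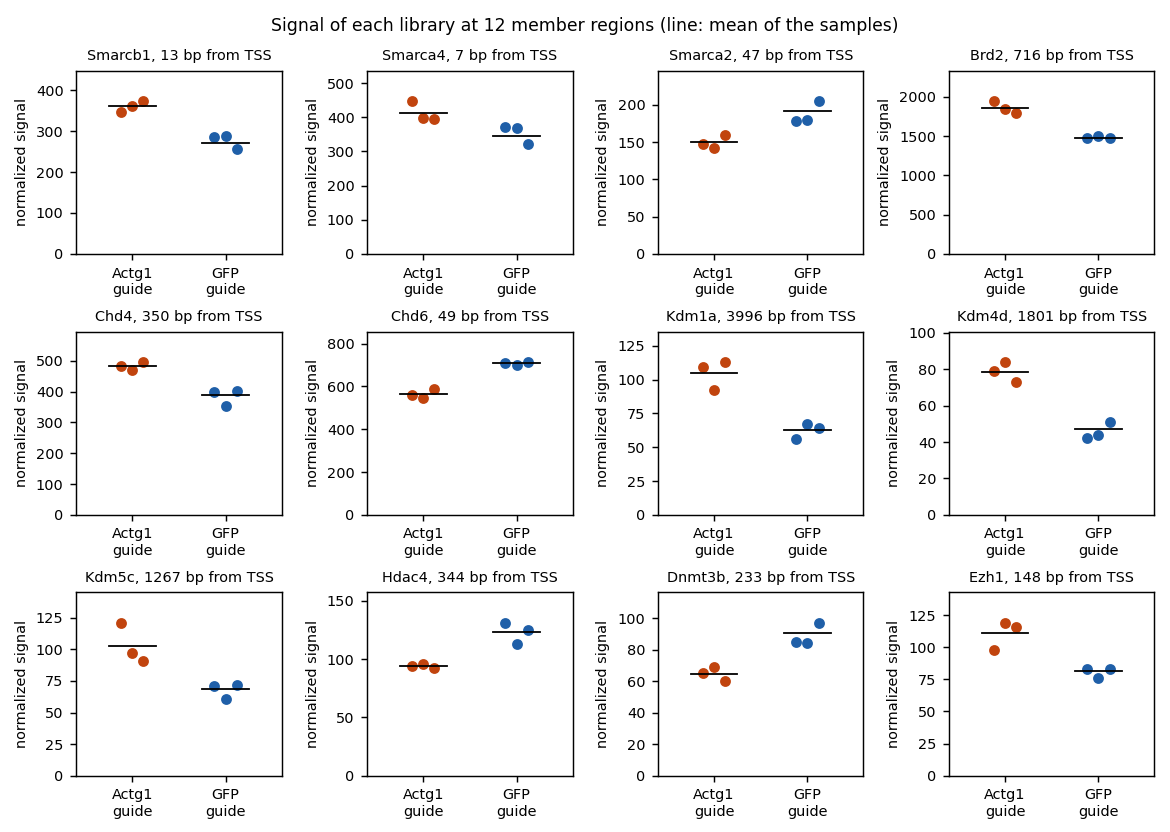
Points are the normalized signal of each library at 12 member regions, with the Actg1 guide on the left and the GFP guide on the right of each panel, and lines are the means of the samples (GFP guide replicates 1 and 2 counted as 1). At Smarcb1 the Actg1 guide libraries lie at 346 to 373 and the GFP guide libraries at 256 to 287, while at Chd6 the Actg1 guide libraries lie at 548 to 590 and the GFP guide libraries at 701 to 714.

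The ISWI and related ATPases had 0 regions higher and 2 lower of 4. Smarca5, the widely expressed ISWI ATPase that spaces nucleosomes, had 533, 491 and 494 with the Actg1 guide and 559, 519 and 620 with the GFP guide. The groups overlapped, since 1 Actg1 guide library lay above 1 GFP guide library, and the log2 ratio was -0.19 (SE 0.0639, limma adjusted p = 0.0133). Its paralogue Smarca1 had 53, 45 and 50 with the Actg1 guide and 61, 71 and 70 with the GFP guide, without overlap, a log2 ratio of -0.46 (SE 0.169, limma adjusted p = 0.0266). Smarcad1 and Smarcal1 had log2 ratios of -0.16 and 0.00 and were not called (limma adjusted p = 0.15 and 0.969). Both calls ended without GFP guide replicate 3 (Smarca5 -0.09, Smarca1 -0.42) and without Actg1 guide replicate 2 (-0.17 and -0.39). That of Smarca5 also ended without Actg1 guide replicate 3 (-0.18), and that of Smarca1 without GFP guide replicate 2 (-0.40).

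The CHD genes, grouped by symbol and including Chd1l, had 5 regions higher and 3 lower of 11, with 8 genes and 8 promoter regions. That is 72.7% called, against 41.3% of all tested regions. The ATPases of the NuRD complex, which joins remodelling to histone deacetylation, were among the rises. At the Chd4 promoter the Actg1 guide libraries had 482, 470 and 496 and the GFP guide libraries 398, 354 and 401. These did not overlap, and the log2 ratio was 0.31 (SE 0.0656, limma adjusted p = 0.000153). Chd3 had 115, 124 and 112 with the Actg1 guide and 69, 87 and 72 with the GFP guide at the region 848 bp from its TSS, a log2 ratio of 0.63 (SE 0.130, limma adjusted p = 0.000109), again without overlap. A second Chd3 region, 2851 bp downstream of the TSS, rose by 0.25 (limma adjusted p = 0.0206), and another, at 4233 bp, had a log2 ratio of -0.31 that was not called (limma adjusted p = 0.194).

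Of the other CHD genes, Chd6 had the lowest adjusted p of any fall among the members. Its promoter had 560, 548 and 590 with the Actg1 guide, against 709, 701 and 714 with the GFP guide, a log2 ratio of -0.33 (SE 0.0566, limma adjusted p = 9.3e-06). Every Actg1 guide library lay below every GFP guide library by more than the spread within either group. Chd9, of the same subfamily, fell by 0.20 at its promoter (limma adjusted p = 0.0287), and Chd2, whose mutation is known in human epileptic encephalopathy, fell by 0.23 at a region 3917 bp downstream (limma adjusted p = 0.00542). Chd1, which works on transcribed chromatin, and Chd1l, which is recruited to sites of DNA damage, rose at their promoters by 0.13 and 0.21 (limma adjusted p = 0.0276 and 0.0302). The Chd2 promoter (log2 ratio 0.11) and that of Chd8 (-0.00) were not called. With GFP guide replicate 3 left out, the losses were Chd1 (0.09), Chd1l (0.22), Chd2 (-0.23), Chd9 (-0.14) and the Chd3 region at 2851 bp (0.21), at limma adjusted p of 0.103 to 0.313. Chd1 was also lost without Actg1 guide replicate 1 or 2 (0.12 each), Chd1l without Actg1 guide replicate 1 or 3 (0.21 and 0.18), Chd9 without Actg1 guide replicate 3 or GFP guide replicate 1 (-0.17 and -0.18), and that Chd3 region without Actg1 guide replicate 1 or 2 or GFP guide replicate 1 (0.21 to 0.23). Cyclic loess scaling ended the call of Chd9 (limma adjusted p = 0.0638), and equal column medians those of Chd1 (0.11) and Chd1l (0.18). Without the mean-variance trend 1 CHD region was called, the Chd3 region 848 bp from its TSS.

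Zinc-dependent histone deacetylases, which as a group take acetyl groups off histones and other proteins, had 0 regions higher and 3 lower of 11 (median log2 ratio -0.09). That is 27.3% called, against 41.3% of all tested regions. Of these regions 9 were promoters, with 22.2% called, against 31.2% of tested promoter regions of protein-coding genes. Hdac4, a class II enzyme that shuttles between nucleus and cytoplasm, had 94, 96 and 92 with the Actg1 guide and 131, 113 and 125 with the GFP guide at a region 344 bp upstream of its TSS. The groups did not overlap, and the log2 ratio was -0.39 (SE 0.125, limma adjusted p = 0.0103). Its class II relative Hdac7 had 44, 30 and 38 with the Actg1 guide and 60, 59 and 62 with the GFP guide at a region 4157 bp downstream, a log2 ratio of -0.70 (SE 0.193, limma adjusted p = 0.00298). Hdac2, a class I enzyme of the NuRD, SIN3 and CoREST complexes, fell by 0.21 at its promoter (limma adjusted p = 0.00932), while its close paralogue Hdac1 had a log2 ratio of -0.09 that was not called (limma adjusted p = 0.323). The most accessible deacetylase promoter, that of the tubulin deacetylase Hdac6, had 487, 477 and 466 with the Actg1 guide and 508, 525 and 507 with the GFP guide, and was not called (log2 ratio -0.10, limma adjusted p = 0.188). Promoters of Hdac3, Hdac5, Hdac8, Hdac10 and Hdac11 had log2 ratios between -0.08 and 0.13, and an Hdac8 region at 4207 bp had -0.35, none of them called. Without GFP guide replicate 3, 0 of the 3 calls were left, at log2 ratios of -0.18 (Hdac2), -0.37 (Hdac4) and -0.68 (Hdac7) and limma adjusted p of 0.0983 to 0.142. Leaving out any of the other 5 libraries ended none of them. Without the mean-variance trend the Hdac2 call ended (limma adjusted p = 0.154).

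Sirtuins, deacylases that consume NAD, had 1 region higher of 5. It lay 5384 bp from the TSS of Sirt4, a mitochondrial sirtuin, upstream by the deposited table but inside the Sirt4 gene of the RefSeq table, where it also overlaps small RNA gene models. Its signal was 936, 957 and 860 with the Actg1 guide, against 741, 734 and 785 with the GFP guide, a log2 ratio of 0.27 (SE 0.0516, limma adjusted p = 4.49e-05). The lowest Actg1 guide library lay above the highest GFP guide library. The Sirt4 promoter region itself had a log2 ratio of -0.04 (limma adjusted p = 0.819), and those of Sirt2 and Sirt5 had 0.11 and -0.08, not called. For Sirt1 the listed region, 4058 bp from its TSS, had 0.36 and was not called (limma adjusted p = 0.222).

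Lysine demethylases, the role with the most regions, had 9 higher and 1 lower of 26 tested, which is 38.5% called against 41.3% of all tested regions. The median log2 ratio was 0.11. Of the 10 calls, 8 lay beyond 1 kb from the TSS, and among 13 demethylase promoters 1 was higher (Kdm1a) and 1 lower (Kdm1b). Kdm6b held 4 of the rises. It encodes an enzyme that removes the repressive methyl mark placed by Polycomb and is known as an early-induced gene in inflammatory signalling. No region within 1 kb of its listed TSS was among the members.

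Around Kdm6b, the strongest region, chr11:69410507-69411930, centred 2456 bp downstream of the TSS, had 739, 704 and 701 with the Actg1 guide and 455, 488 and 474 with the GFP guide. The next, 4086 bp downstream at chr11:69409191-69409987, had 303, 303 and 302 with the Actg1 guide and 200, 203 and 199 with the GFP guide. A region 4251 bp upstream, chr11:69417575-69418276, had 471, 483 and 468 with the Actg1 guide and 341, 323 and 333 with the GFP guide. In these 3 regions the groups stood far apart, with log2 ratios of 0.59, 0.59 and 0.51 (SE 0.0567, 0.0825 and 0.0669; limma adjusted p = 2.61e-11, 1.62e-07 and 4.72e-08), and all 3 kept an adjusted p under 0.05 in every refit. A weaker rise lay 4822 bp downstream, with 285, 272 and 257 with the Actg1 guide and 224, 229 and 233 with the GFP guide, a log2 ratio of 0.24 (SE 0.0843, limma adjusted p = 0.0207). The fifth, 5218 bp upstream, had 529, 489 and 523 with the Actg1 guide and 514, 499 and 454 with the GFP guide, which overlap (log2 ratio 0.10, limma adjusted p = 0.226). The table places the upstream pair outside the gene, whereas both fall inside Kdm6b as RefSeq bounds it. The call at 4822 bp ended without Actg1 guide replicate 1 (0.20) and without GFP guide replicate 3 (0.26).

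Neighbouring regions within 60 kb of the Kdm6b TSS were either called higher or not called, and none was called lower. Over all tested regions 20.6% were called higher and 20.7% lower. A region with no gene symbol at chr11:69443309-69443814, on the upstream side, had 183, 153 and 176 with the Actg1 guide and 97, 98 and 89 with the GFP guide, a log2 ratio of 0.86 (SE 0.115, limma adjusted p = 6.72e-08). The region of Cyb5d1, a neighbour on the downstream side, was not called (log2 ratio 0.19, limma adjusted p = 0.0576), nor was that of Naa38 (-0.07, limma adjusted p = 0.883). Still uncalled were the regions at chr11:69382554-69383102 (0.24, limma adjusted p = 0.0956) and chr11:69432161-69432321 (-0.35, limma adjusted p = 0.252). A region of low signal assigned to Tmem88 rose by 0.68 with overlapping libraries (limma adjusted p = 0.0201), and 2 regions with no gene, at chr11:69362627-69362776 and chr11:69472742-69472912, rose by 0.53 and 1.70 (limma adjusted p = 0.0134 and 0.000229). Called and uncalled regions were thus interspersed along the stretch from Kdm6b to Chd3. These neighbours were chosen by position after the values of Kdm6b were seen.

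**Figure D4:**
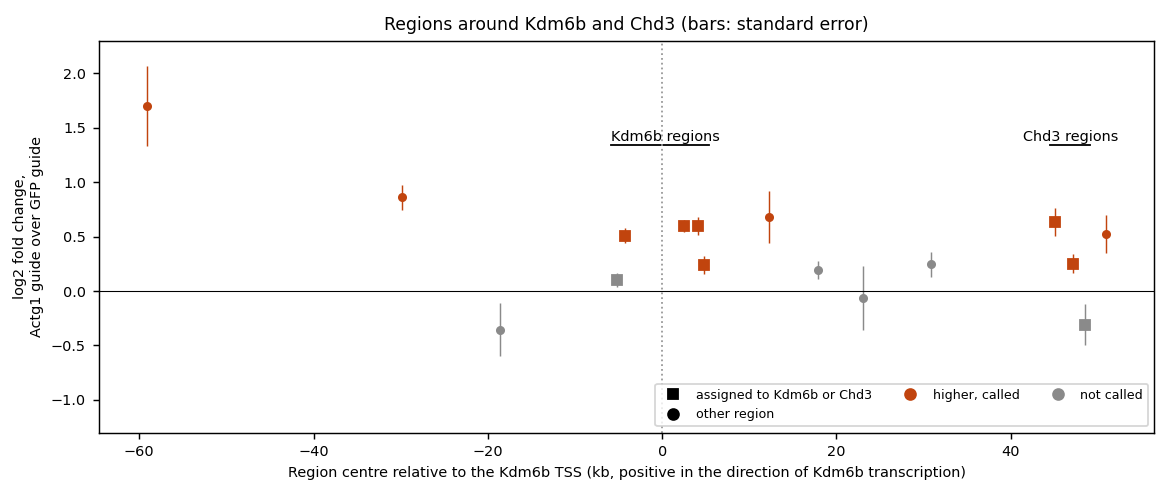
Points show the log2 fold change, Actg1 guide over GFP guide, with its standard error, of tested regions within 60 kb of the Kdm6b TSS, by the distance of the region centre from that TSS in kb. Squares are regions assigned to Kdm6b or Chd3, of which 6 were called higher, grey points were not called, and the highest point is the region of low signal at chr11:69472742-69472912 (1.70).

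Other demethylases rose inside their genes. At the region 3996 bp downstream of the TSS of Kdm1a, the demethylase of the CoREST complex, the Actg1 guide libraries had 109, 92 and 113 and the GFP guide libraries 56, 67 and 64. The log2 ratio was 0.72 (SE 0.141, limma adjusted p = 5.28e-05), and the lowest Actg1 guide library, at 92, lay above the highest GFP guide library, at 67. The Kdm1a promoter had 190, 172 and 154 with the Actg1 guide and 157, 133 and 127 with the GFP guide, a log2 ratio of 0.33 (SE 0.109, limma adjusted p = 0.0120) with overlapping groups. Kdm4d, a demethylase best known from testis, had the largest rise of all members at a region 1801 bp downstream, with 79, 84 and 73 with the Actg1 guide against 42, 44 and 51 with the GFP guide (log2 ratio 0.73, SE 0.160, limma adjusted p = 0.000251). An X-linked gene, Kdm5c, which erases methyl marks of active promoters, had 121, 97 and 91 with the Actg1 guide and 71, 61 and 72 with the GFP guide at a region 1267 bp downstream, a log2 ratio of 0.56 (SE 0.142, limma adjusted p = 0.00137). Its promoter had a log2 ratio of -0.04 (limma adjusted p = 0.666).

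At Kdm7a, a PHD-finger demethylase, a region 1187 bp downstream rose by 0.32 (limma adjusted p = 0.00636) and the promoter had 0.14 (limma adjusted p = 0.234). Kdm1b, which acts on maternal imprints in mouse oocytes, had 881, 780 and 869 with the Actg1 guide and 938, 952 and 969 with the GFP guide at its promoter, without overlap, a log2 ratio of -0.18 (SE 0.0511, limma adjusted p = 0.00330). That region also reaches Tpmt, so the signal cannot be assigned to 1 of both genes. The most accessible demethylase promoter, that of Kdm4b, had 1220, 1168 and 1255 with the Actg1 guide and 1264, 1234 and 1270 with the GFP guide, which overlap (log2 ratio -0.05, limma adjusted p = 0.331). Promoters of Kdm2b, Kdm3a, Kdm3b, Kdm4a, Kdm5a, Kdm5b, Kdm6a and Kdm8 had log2 ratios between -0.26 and 0.12, and 0 were called. Farther regions of Kdm2a, Kdm2b, Kdm3b and Kdm5b had log2 ratios between -0.07 and 0.11 and were not called. Of the 3 Kdm2b regions, the one 1394 bp from its TSS was below the signal needed for the test. The calls of the Kdm1a promoter (0.24), Kdm1b (-0.17) and Kdm7a (0.28) ended without GFP guide replicate 3. The Kdm1a promoter was also lost without Actg1 guide replicate 1 (0.26), and Kdm7a without Actg1 guide replicate 2 (0.23).

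Lysine acetyltransferases had 3 promoters higher and 0 lower of 6, by at most 1.16-fold. That is 50.0% called, against 31.2% of tested promoter regions of protein-coding genes. Kat5, the catalytic subunit of the TIP60 complex, had 473, 512 and 435 with the Actg1 guide and 392, 420 and 407 with the GFP guide (log2 ratio 0.22, SE 0.0684, limma adjusted p = 0.00966). Kat6a, a MYST-family enzyme rearranged in leukaemia, had 725, 634 and 687 with the Actg1 guide and 599, 618 and 603 with the GFP guide (log2 ratio 0.17, SE 0.0576, limma adjusted p = 0.0165). In both genes the groups did not overlap. Kat7, which works with ING and BRPF partners, rose by 0.19 (limma adjusted p = 0.00660), and Kat2a, Kat2b and Kat8 had 0.06, 0.12 and -0.06, not called. These calls were fragile: 0 of the 3 were left without Actg1 guide replicate 1 (Kat5 0.21, Kat6a 0.12, Kat7 0.17) or without GFP guide replicate 3 (0.22, 0.16 and 0.14). Kat5 and Kat7 were also lost without Actg1 guide replicate 2 (0.16 and 0.17), and Kat6a without Actg1 guide replicate 3 (0.16) or with equal column medians (0.14). Without the mean-variance trend 0 of the 3 were called.

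The ING genes, whose products read methylated histone tails through PHD fingers, were highly accessible and changed little. Of 7 regions 0 were higher and 2 lower, but after cyclic loess scaling 1 was higher and 0 lower, so the group had no direction that held across scalings. The Ing2 promoter had 1131, 1126 and 1176 with the Actg1 guide and 1230, 1289 and 1243 with the GFP guide, without overlap (log2 ratio -0.13, SE 0.0423, limma adjusted p = 0.0125). The Ing1 region 2527 bp downstream had a log2 ratio of -0.11 with overlapping libraries, the smallest change called (limma adjusted p = 0.0477). The Ing1 promoter, second in signal among members, had 1622, 1528 and 1564 with the Actg1 guide and 1537, 1524 and 1519 with the GFP guide, and was not called (log2 ratio 0.04, limma adjusted p = 0.388). The Ing2 call ended without GFP guide replicate 3 (-0.14, limma adjusted p = 0.0821) and after cyclic loess scaling (-0.08). Ing3, Ing4, Ing5 and a second Ing2 region had log2 ratios between -0.10 and 0.07 and were not called. The call of Ing1 ended without each library other than GFP guide replicate 1 (-0.12 to -0.07), after cyclic loess scaling (-0.06), and, at a hardly changed log2 ratio, with no filter or a pseudocount of 8 (limma adjusted p = 0.0512 and 0.0508).

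BET proteins bind acetylated histones through paired bromodomains. The promoter of Brd2 had the highest signal of any member, 1943, 1844 and 1799 with the Actg1 guide, against 1476, 1501 and 1469 with the GFP guide. The groups were separated by far more than their spread, with a log2 ratio of 0.33 (SE 0.0374, limma adjusted p = 1.64e-09). The call held when any 1 library was left out, and was lost without the mean-variance trend (limma adjusted p = 0.0519). Brd3 (1890 bp from its TSS) and Brd1, a scaffold of a MYST acetyltransferase complex and not a BET protein, had log2 ratios of 0.05 and -0.00 and were not called (limma adjusted p = 0.847 and 0.991).

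The genes of Polycomb's methyltransferases differed in call. Ezh1, the weaker enzyme that persists in resting cells, had 98, 119 and 116 with the Actg1 guide and 83, 76 and 83 with the GFP guide at its promoter. The groups did not overlap (log2 ratio 0.44, SE 0.132, limma adjusted p = 0.00632). Ezh2, the main enzyme of dividing cells, had 638, 631 and 603 with the Actg1 guide and 605, 570 and 607 with the GFP guide, which overlap (log2 ratio 0.06, SE 0.0566, limma adjusted p = 0.396). The difference between both genes was not tested. The Ezh1 call ended without GFP guide replicate 3 (0.47, limma adjusted p = 0.0724).

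Of the DNA methyltransferase genes, 0 regions were higher and 1 lower of 3. The Dnmt3b promoter had 65, 69 and 60 with the Actg1 guide and 85, 84 and 97 with the GFP guide, without overlap, a log2 ratio of -0.48 (SE 0.149, limma adjusted p = 0.00819). Dnmt3b places new methylation, as does Dnmt3a, whose region 1212 bp from the TSS had 295, 279 and 297 with the Actg1 guide and 303, 292 and 312 with the GFP guide and was not called (log2 ratio -0.07, limma adjusted p = 0.504). A region 1960 bp from the TSS of Dnmt1, the maintenance enzyme, had a log2 ratio of 0.35 and lay just outside the threshold (limma adjusted p = 0.0529). Among Tet genes 1 of 3 regions was lower, the Tet2 promoter, with 233, 230 and 232 with the Actg1 guide and 291, 246 and 293 with the GFP guide (log2 ratio -0.27, SE 0.0844, limma adjusted p = 0.00766). Its groups did not overlap. A second Tet2 region and the one of Tet3 had -0.01 and -0.12, not called. Dnmt3b (-0.38, limma adjusted p = 0.169) and Tet2 (-0.21, limma adjusted p = 0.161) were lost without GFP guide replicate 3, and Tet2 also without GFP guide replicate 1 (-0.21, limma adjusted p = 0.0608).

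ARID proteins outside BAF had 3 regions higher and 2 lower of 11. That is 45.5% called, against 41.3% of all tested regions. Arid3a, which binds AT-rich DNA and was first described in B cells, had 321, 368 and 309 with the Actg1 guide and 262, 258 and 251 with the GFP guide at its promoter, without overlap (log2 ratio 0.38, SE 0.0814, limma adjusted p = 0.000231). Its relative Arid3b rose by 0.28 (limma adjusted p = 0.00524) with overlapping libraries. Arid5b, a partner of the demethylase Phf2, was the 1 member gene with calls in both directions. Its region 1545 bp upstream had 47, 65 and 74 with the Actg1 guide and 91, 92 and 94 with the GFP guide, and the one 4553 bp upstream, with low signal, had 25, 32 and 22 with the Actg1 guide and 16, 14 and 17 with the GFP guide. Neither pair of groups overlapped, and the log2 ratios were -0.60 and 0.67 (SE 0.162 and 0.275; limma adjusted p = 0.00263 and 0.0463). The Arid5b regions 1877 bp downstream and 2532 bp upstream had 0.15 and 0.11 and were not called (limma adjusted p = 0.261 and 0.660).

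A region 4103 bp upstream of Arid5a, whose product stabilizes Il6 mRNA, fell by 0.38 (limma adjusted p = 0.00169) and its promoter had 0.02. Farther regions of Arid3a and Arid3b had 0.32 and -0.03 and were not called. The promoter of Arid4a, the most accessible of this group, had 890, 890 and 931 with the Actg1 guide and 929, 859 and 902 with the GFP guide (log2 ratio 0.01, limma adjusted p = 0.904). All 5 calls of these ARID genes ended without GFP guide replicate 3, at 0.35 for Arid3a, 0.19 for Arid3b, -0.32 for Arid5a, -0.58 and 0.76 for Arid5b, and limma adjusted p of 0.0509 to 0.253. Arid3b was also lost without Actg1 guide replicate 1 or 3 (0.25 and 0.23). The Arid5b region at 4553 bp was lost without Actg1 guide replicate 1 or 2 or GFP guide replicate 2 (0.53 to 0.70), after cyclic loess scaling (0.61) and with column medians set equal (0.65).

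Partner subunits that the symbol rule leaves out were read from a list of 105 genes, of which 86 had promoter regions. Among the 91 that could be tested, calls in the higher direction numbered 20 and in the lower direction 15. That is 38.5%, beside a background of 31.2% at promoters of all protein-coding genes. In BAF/PBAF 5 were higher and 1 lower of 12. Actb, the gene of beta-actin, had 1171, 1234 and 1190 with the Actg1 guide and 1017, 1050 and 1010 with the GFP guide (log2 ratio 0.23, SE 0.0435, limma adjusted p = 3.68e-05). Bicra, a subunit of the non-canonical BAF complex, had 73, 87 and 67 with the Actg1 guide and 51, 51 and 44 with the GFP guide, a log2 ratio of 0.66 (SE 0.164, limma adjusted p = 0.00122). Dpf2, a PHD-finger subunit, rose by 0.50, Bcl7a by 0.38 and Bicral by 0.19, whereas Ss18, known from its fusion in synovial sarcoma, fell by 0.36 (limma adjusted p = 0.000171, 0.000919, 0.0131 and 9.88e-05). Actb, Dpf2, Bcl7a and Ss18 kept their call whichever library was left out, but Actb (limma adjusted p = 0.121), Bcl7a (0.0634) and also Bicral (0.21) lost it without the mean-variance trend. Bicra was lost without GFP guide replicate 3 (0.55), and Bicral without Actg1 guide replicate 1 or 3 (0.17 and 0.18).

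In NuRD 3 partner promoters were higher and 2 lower of 10. The subunit Mbd3 rose by 0.18 (limma adjusted p = 0.00333), and the histone chaperone Rbbp7 fell (log2 ratio -0.34, limma adjusted p = 0.000267). Corepressor genes had 4 regions higher and 5 lower of 14, with Tbl1x on both sides (-0.26 at 209 bp and 0.35 at 887 bp). There Brms1, of the SIN3 complex, had 236, 210 and 257 with the Actg1 guide and 161, 154 and 157 with the GFP guide (log2 ratio 0.57, SE 0.0968, limma adjusted p = 6.96e-06), and the scaffold Sin3b had 157, 145 and 151 with the Actg1 guide and 191, 217 and 206 with the GFP guide (-0.44, SE 0.100, limma adjusted p = 0.000423). Among INO80, SRCAP and TIP60 subunits 4 were higher and 2 lower of 20, with Vps72 up by 0.33 and Nfrkb down (log2 ratio -0.36; limma adjusted p = 0.0135 and 0.000455). Acetyltransferases and their partners outside the members had 3 higher and 4 lower of 18, with Msl1 at 0.25 and Ncoa1 at -0.39 (limma adjusted p = 0.00871 and 0.000315). The ISWI partners had 1 higher of 6 (Baz1b, 0.19, limma adjusted p = 0.00924), the PRC2 partners 1 lower of 6 (Aebp2, -0.17, limma adjusted p = 0.0351), and the partners of DNA methylation 0 of 5. Without GFP guide replicate 3, 10 of these partner promoters were called, 6 higher and 4 lower, and Vps72 (0.38), Nfrkb (-0.33), Msl1 (0.17), Ncoa1 (-0.36), Baz1b (0.14) and Aebp2 (-0.19) were lost. Msl1 (0.22) and Baz1b (0.17) were also lost without Actg1 guide replicate 1, Vps72 without Actg1 guide replicate 3 (0.28) or GFP guide replicate 2 (0.23), and Aebp2 without Actg1 guide replicate 1 or 3 or GFP guide replicate 1 (-0.16 to -0.14) or after cyclic loess scaling (-0.14, limma adjusted p = 0.0893). Without the mean-variance trend 8 partner promoters were called, 3 higher and 5 lower. Of the named ones, Mbd3, Vps72, Msl1, Ncoa1, Baz1b, Aebp2 and both Tbl1x regions were lost (limma adjusted p = 0.0644 to 0.213). The Tbl1x calls also ended without GFP guide replicate 3 (-0.18 and 0.42). That at 887 bp ended without Actg1 guide replicate 2 or 3 or GFP guide replicate 1 (0.29 to 0.33) and with column medians set equal (0.32).

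The called members were also set side by side for features that the rule did not use. Beyond 1 kb, regions downstream of the listed TSS had 9 higher and 3 lower of 26 (34.6% and 11.5%). Regions upstream had 3 higher and 2 lower of 16 (18.8% and 12.5%). Over all such regions of protein-coding genes, without a split by side, 22.9% were higher and 15.9% lower. The downstream rises include regions of Kdm6b and Chd3. The upstream rises include the Kdm6b region at 4251 bp and the Sirt4 region at 5384 bp, which RefSeq places inside those genes. A RefSeq promoter window was matched for 65 of 82 genes, and 56 member regions overlapped the window of their own gene. The GC content of these windows had a median of 63.7% for the 12 higher regions, 67.7% for the 11 lower and 61.0% for the 33 not called, against 52.7% over all 32851 windows of the table. The AP-1 motif was in 8.93% of member windows and 7.81% of all windows, the TEAD motif in 10.7% and 14.7%, and the ETS motif in 14.3% and 8.86%. The CCAAT motif of NFY was in 48.2% of member windows and 37.4% of all, in 4 of the 12 higher, 3 of the 11 lower and 20 of the 33 not called. The E-box was in 3.57% and 7.15%. These shares describe letters in windows of 300 bases, with no test. The member windows all overlapped a tested region of a protein-coding gene, while the windows of the whole table were not filtered in this way. The part of this selection in the differences was not tested.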

How the data were processed

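Per the labels, ATAC-seq libraries of 25000 NIH/3T3 cells were transposed for 30 min at 37 °C and sequenced in paired-end mode. Per the submitters' processing notes, the build was mm10 and the tools were featureCounts, DESeq, DESeq2 1.36.0, STAR 2.7.10a, Trimmomatic 0.39 and Picard 3.0.0. The role of each tool is not given in the sources used here, nor is the peak caller or any Tn5 shift. Deposited by the authors was 1 table with a normalized signal per region and library, the distance to the TSS and, per the file headers, the fraction of each region inside the gene body. The values are whole numbers and read as counts times a factor, rounded: 61.3% to 100% of a library's values fit exactly 1 read count, at an estimated 0.807 to 1.35 signal units per read. Coordinates and gene assignments are the table's.

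From this signal, regions with at least 10 in at least 3 of 6 libraries were tested (61327; 2103 were left out). A linear model with a trend of variance over signal (limma 3.58.1, R 4.3.3) was applied to log2(signal + 1), a scale that understates changes of low regions. P-values were adjusted over all tested regions by the Benjamini-Hochberg method, and a call is an adjusted p under 0.05. The GFP guide's replicates 1 and 2 were averaged, since over 59697 regions with at least 20 reads in both together their difference could not be told from counting error. Their own spread is thus not in the standard errors. The script was tested on simulated data. Replicate numbers were not used to pair samples in the main fit. Deviations of same-numbered libraries correlated at 0.014 to 0.025, and those of differently numbered libraries at -0.017 to 0.

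Genes named are, by rule, the 25 called members with the largest change, the largest rise and fall and the highest signal in each role, genes called both ways, the largest rise and fall among partner promoters of each complex, and Actb. 1 member is in the counts but is not reported or plotted by itself here. Members, roles and lists were chosen with earlier results of these data known. Promoter windows are those of RefSeq (GRCm38.p6); the NRF1 motif was not searched. Alternatives were other scalings, pseudocounts, filters, windows, separate libraries, a replicate block, no variance trend and leaving out each library; those for the partner genes were chosen after seeing the data.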

Additional observations from a re-analysis of the deposited data

How the results depend on the processing

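Of 48 called members, 8 kept an adjusted p under 0.05 in every refit: Smarcb1, Kdm4d, Kdm5c, 1 region each of Chd3 and Kdm1a, and 3 regions of Kdm6b. Of these 8, 5 changed by at least 1.5-fold, the exceptions being Smarcb1, Kdm5c and the Kdm6b region at 4251 bp. Counts of called members were 43 to 53 with separate libraries, other pseudocounts, no filter or other scaling, 17 without the mean-variance trend, 9 at 1.5-fold or more, and 13 to 44 with 1 library left out. Member promoters called were 31, against 7 without the trend and 6 to 30 with 1 library left out; partner promoters were 35, against 8 and 10 to 35. All regions called were 25323, against 12793 to 24706 with 1 library left out. Among the settings that leave out 1 library, the lowest values came without GFP guide replicate 3, which leaves 2 libraries counted as 1 sample; 35 member calls then ended, of which 20 kept at least 80% of their log2 fold change. Without the trend 32 ended and 1 was gained, at unchanged fold changes, since that setting alters the error alone. By role, calls without the trend were 2 in BAF/PBAF, 1 in ISWI and related ATPases, 1 in CHD genes and 2 in deacetylases. Demethylases had 6, other ARID genes 2, and sirtuins, Polycomb methyltransferases and DNA methyltransferases 1 each. Acetyltransferases, ING, BET and Tet genes had 0. The cause of the losses in the other settings was not tested.

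With a replicate block over 6 libraries, 53 members (34 higher, 19 lower), 34 member promoters, 40 partner promoters and 28725 regions were called; without the block, the 6 libraries gave 53, 34, 38 and 28176. Each library's deviations correlated best with its own number, a hint from the data and not from the design. Of 65 uncalled members, 23 changed sign under at least 1 refit, 3 of them named by rule: Arid1b (-0.0012 without Actg1 guide replicate 1, -0.0037 without GFP guide replicate 1, up to 0.0601 with another library left out), Arid4a (-0.0162 with column medians set equal, -0.0129 without Actg1 guide replicate 3, -0.0189 without GFP guide replicate 2, up to 0.0375) and the Arid5b region at 2532 bp (-0.002 without Actg1 guide replicate 1, up to 0.2248). Setting column medians equal moved the median of all regions to -0.03. Depth limits regions of low signal such as Smarcd3 and the Arid5b region at 4553 bp.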
